A study of Mus musculus with 12 samples.

Results

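NELFA occupancy at gene starts was compared with mRNA level in mouse embryonic stem cells (mESCs). The data were 2 libraries of the 12 in the series, 1 ChIP-seq library of GFP-tagged NELFA and 1 RNA-seq library, both from the E14 line. Each of 21905 protein-coding genes with a level in the RNA-seq table, of 21938 annotated on the assembled chromosomes, was placed in a class by TPM, a unit that adjusts a transcript's reads for its length and for the size of the library. The value used was that of the gene's highest transcript. The classes were 5747 genes listed at 0 and the quartiles of the 16158 genes above 0, with limits at 0.523, 5.60 and 21.6 TPM. A gene had NELFA when the summit of a NELFA peak, the base with the most fragments, lay within 1 kb of its annotated start, and 1743 genes did. The tag was a LAP tag that carries GFP, and the chromatin was pulled down with an anti-GFP antibody from untreated cells grown with serum and LIF. The RNA-seq library carries the same cell line label, but whether it came from the tagged cells is not given in the sources used here.

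NELF is a protein complex that binds RNA polymerase II (RNAPII) shortly after initiation and, together with DSIF, holds it in a paused state just downstream of the start. The kinase P-TEFb phosphorylates DSIF, NELF and the tail of RNAPII, after which NELF leaves and elongation proceeds. Paused RNAPII carries phosphorylated serine 5 (Ser5p) on its tail, elongating RNAPII carries phosphorylated serine 2 (Ser2p), H3K27ac marks active promoters and enhancers, and Ctr9 is a subunit of the Paf1 elongation complex. Pausing is known from heat shock, immediate early and developmental genes, and NELF also takes part in the 3′ end processing of the mRNAs of replication-dependent histones, which have no poly(A) tail.

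In all, 1980 NELFA peaks were listed, with fold enrichments over the local background between 1.91 and 30.5 and a median width of 321.5 bp. The list gives no read counts, so the depth of the ChIP-seq library is unknown, and the estimated counts of the RNA-seq library add up to 26400407. With 1 library of each kind there were no replicates and no test, and every interval below is a 95% interval that covers counting error or spread among genes within these libraries only. The label of the RNA-seq library was checked on marker genes. The pluripotency factors Pou5f1 (1402 TPM), Sox2 (364 TPM), Zfp42 (286 TPM), Nanog (281 TPM) and Esrrb (211 TPM) were all in the highest quartile. Of the fibroblast markers, Postn was listed at 0, and Col1a2, Col1a1, Col5a1 and Thy1 were at 0.132, 0.203, 2.38 and 5.69 TPM.

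Genes with NELFA were found mainly among highly expressed genes. Over all protein-coding genes the share with NELFA was 7.96%. Only 18 of 5747 genes listed at 0 had NELFA (0.313%, exact Clopper-Pearson interval 0.186% to 0.495%), and 33 of 4040 in the lowest quartile did (0.817%, 0.563% to 1.15%). The share was 4.75% in the second quartile (192 of 4039 genes), 12.3% in the third (497 of 4039) and 24.8% in the highest (1003 of 4040, 23.5% to 26.2%). No interval overlapped that of the next class, and the order of the shares was the order of the TPM classes. Even so, 3037 of the 4040 genes of the highest quartile had no NELFA summit within 1 kb.

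**Figure D1:**
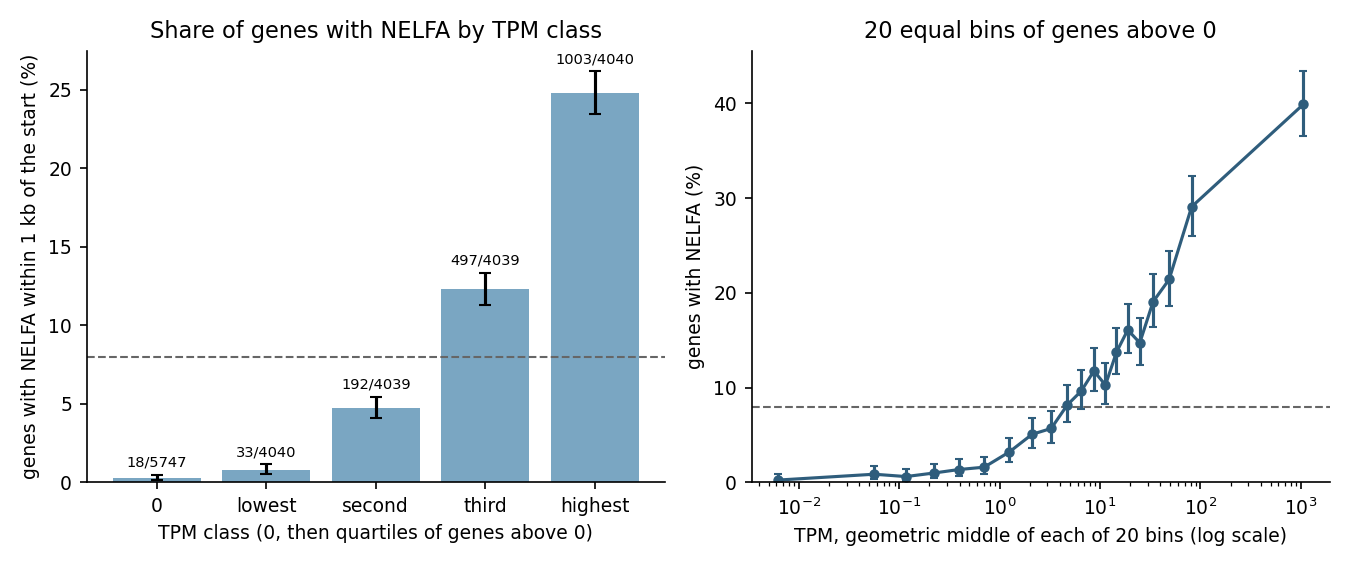
Share of protein-coding genes with a NELFA summit within 1 kb of the start (y axis, %), by TPM class (left, bars) and in 20 equal bins of the genes above 0 TPM (right, points at the geometric middle of each bin on a log axis). Error bars are 95% exact intervals and the dashed line is the share over all genes, 7.96%; the bars go from 0.313% to 24.8% and the points from 0.248% to 39.9%.

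Within the quartiles the share followed TPM as well. In 20 equal bins of the genes above 0, it was 0.248% in the bin of lowest TPM and 39.9% in the bin above 111.8 TPM. Of the 100 genes with the highest TPM, 74 had NELFA, and 66 of the 100 encode cytosolic ribosomal proteins. Of the other 34, 22 had NELFA (64.7%, interval 46.5% to 80.3%). The share was 47.6% among the top 500 genes and 38.2% among the top 1000. Seen from the other side, genes with NELFA had a median of 29.5 TPM (interval 26.8 to 31.6) and genes without it 0.664 TPM (0.607 to 0.742).

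The NELFA summits lay close to the annotated start. Their median position was 38 bp downstream (interval 30 to 45 bp), and 59.6% lay downstream. In the highest quartile the median was 46 bp downstream (37 to 54 bp), and 45.4% of the summits were within 100 bp of the start. In the lowest quartile the median was 115 bp upstream, with an interval from 259 bp upstream to 71 bp downstream, and 21.2% were within 100 bp. Against the gene models, 40.2% of all summits at genes were upstream of the start, 40.9% in a UTR exon, 10.2% in a coding exon and 8.66% in an intron. In the highest quartile 47.1% were in a UTR exon, and in the lowest quartile 60.6% were upstream.

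The peaks at low genes often had another gene start nearby. In the highest quartile, 82.5% of the genes with NELFA had the start nearest to the summit among genes of any type, against 38.9% of the genes at 0 and 42.4% of the lowest quartile. Another protein-coding start lay within 1 kb of the same summit for 24.9% of the highest quartile, 78.8% of the lowest quartile and 77.8% of the genes at 0. The 1743 genes therefore rested on 1466 distinct summits. Opposite-strand starts shared a summit in 260 pairs, with a median of 43.4 TPM for the higher and 8.37 TPM for the lower gene of a pair. The peak list does not say which start of a pair a summit belongs to.

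**Figure D2:**
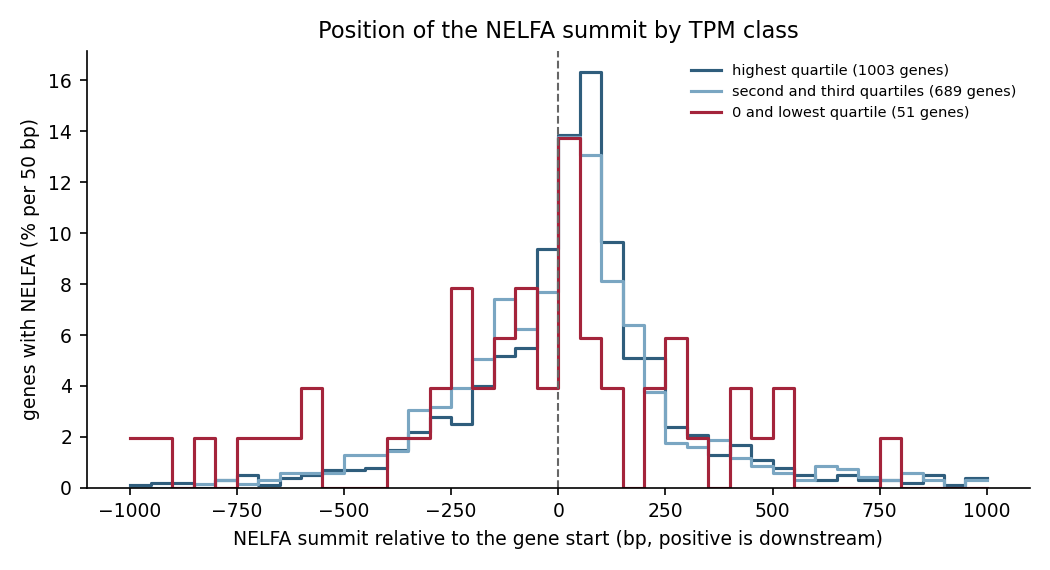
Position of the NELFA summit relative to the gene start (x axis, bp, positive is downstream) in bins of 50 bp (y axis, % of the genes with NELFA in each group), for the highest quartile, for the second and the third quartiles together, and for genes at 0 with the lowest quartile. The line of the highest quartile peaks just downstream of the start, while that of the 51 genes with low TPM is spread over both sides.

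The height of the NELFA peaks did not follow TPM in the way that their presence did. The median fold enrichment was 6.63 among the 18 genes listed at 0 (order-statistic interval 5.04 to 10.4), 5.31 in the lowest quartile (4.67 to 6.80), 5.28 in the second (4.96 to 5.51), 4.83 in the third (4.76 to 5.004) and 5.09 in the highest (4.99 to 5.19). These medians lie near the 5.05 of all 1743 genes, and the class at 0 has the highest and the widest interval. Across genes with NELFA, Spearman's rho between fold and TPM was 0.065, and across those of the highest quartile alone it was 0.167 (1003 genes). These describe genes of the same 2 libraries, which are not independent replicates. NELFA was called strong at a fold of at least 6.14, the upper quartile, so that by construction 25.0% of the genes with NELFA are strong, or 1.99% of all genes. By class, the strong share was 61.1%, 39.4%, 26.6%, 19.9% and 26.1% from the genes at 0 to the highest quartile. Without replication-dependent histone genes it was 56.25%, 30.8%, 16.7%, 19.4% and 26.0%, and thus rose from the second to the highest quartile. At 0 and in the lowest quartile these shares rest on 16 and 26 genes with NELFA. Over all classes, genes with a fold of at most 4.31 had a median of 24.8 TPM (interval 20.4 to 28.8). Strong genes had a median of 37.0 TPM (30.4 to 41.8).

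**Figure D3:**
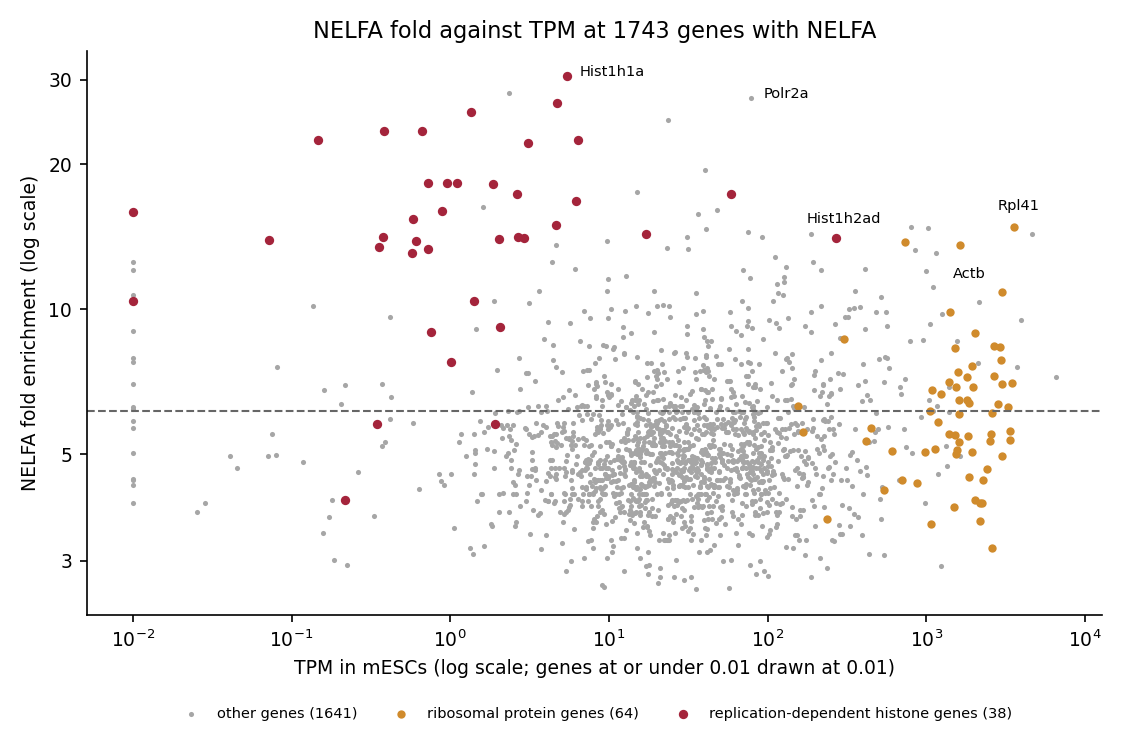
NELFA fold enrichment (y axis, log scale) against TPM in mESCs (x axis, log scale, with genes at or under 0.01 drawn at 0.01) for the 1743 genes with NELFA, 1 point a gene. Replication-dependent histone genes lie high at low TPM, ribosomal protein genes lie far to the right at folds of 3.20 to 14.8, and the dashed line marks the limit of strong NELFA at 6.14.

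The highest folds belonged to replication-dependent histone genes, which encode the histones made in S phase. Of the 15 genes with the highest fold, 11 were histone genes. Among them Hist1h2ac and Hist1h2bc shared a summit, as did Hist1h2ag and Hist1h2bj. Hist1h1a, a linker histone gene at chr13:23763666-23764406 on the plus strand (GRCm38), had the highest fold of all, 30.5, with its summit 133 bp downstream of the start, in the coding exon, at 5.47 TPM and 57 estimated counts. Hist1h4i had a fold of 26.9 at 4.69 TPM, and Hist1h3h one of 25.7 at 1.34 TPM. The non-histone genes among the 15 were Alyref2, Polr2a, Rdm1 and Gtf3c6. Polr2a, the gene of the largest RNAPII subunit at chr11:69733997-69758637 on the minus strand, had a fold of 27.5 with the summit 56 bp downstream, in a UTR exon, at 78.5 TPM. For the others the nearest annotated start was that of a small RNA gene. The summit of Alyref2 (fold 28.2, 2.36 TPM) was 752 bp upstream of it and nearest to the snRNA gene Gm24871. That of Rdm1 (fold 24.8, 23.6 TPM) was nearest to the snRNA gene Gm23849. That of Gtf3c6 (fold 19.5, 40.2 TPM) was nearest to Rnu3a, a gene of the U3 snoRNA, and with a window of 500 bp the fold at Gtf3c6 was 6.49. Starts of snRNA or snoRNA genes were nearest for 9 of the 436 strong genes (4 snRNA, 5 snoRNA) and for 1 of the other 1307. Other small RNA types, such as miRNA, are not in these counts.

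Of 67 histone genes in the list, 38 had NELFA (56.7%, interval 44.0% to 68.8%, against 7.96% of all genes) and 35 of these were strong. Their median fold was 14.6, against 5.05 over all genes with NELFA, and the range was 4.02 to 30.5. Each kind of histone was represented, with NELFA at 2 of 6 H1, 8 of 18 H2A, 11 of 18 H2B, 7 of 12 H3 and 10 of 13 H4 genes. The median folds were 23.6 for H1, 14.1 for H2A, 14.1 for H2B, 18.3 for H3 and 14.1 for H4. Most of the H2A genes with NELFA shared their summit with a neighbouring H2B gene, such as Hist1h2ae with Hist1h2bg. For most of these pairs the H2B start was the nearer, so the H2A and H2B counts and folds are not of separate peaks. The TPM of the histone genes was low, with a median of 0.729 and 39 of 67 below 1 TPM, resting on a median of 8.59 estimated counts a gene. The exceptions were Hist1h2ao (812 TPM, without NELFA), Hist1h2ad (270 TPM, fold 14.1) and Hist1h2ah (58.6 TPM, fold 17.3). The summit at Hist1h2ah was nearest to the start of Hist1h2bk (2.62 TPM). Replication-dependent histone mRNAs lack a poly(A) tail, and whether the RNA-seq libraries were made from poly(A) RNA is not given in the sources used here, so their part in these low values was not tested. Histone genes are near-identical copies, 54 of the 67 lie on chromosome 13, and reads shared among copies make both the TPM and the peak of a single copy uncertain. Without the histone genes the median fold was 4.97 in the lowest quartile and 4.996 in the second, and rho over 1705 genes was 0.118.

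Of the 15 genes with the highest fold, 11 had RefSeq bases to read, and TATAAA lay within the 100 bases before the start of 5 of them and not of the other 6. The 100 bases before the RefSeq start (GRCm38.p6) are printed 5′ to 3′ on the strand of the gene, for histone and other genes of strong NELFA and then for abundant mRNAs without NELFA. Capitals mark matches, on either strand, to TATAAA (the TATA box), to GGGCGG (the core of the GC box) and to CCAAT (the CCAAT box).
Hist1h1a (chr13:23763568-23763667, plus strand, fold 30.5): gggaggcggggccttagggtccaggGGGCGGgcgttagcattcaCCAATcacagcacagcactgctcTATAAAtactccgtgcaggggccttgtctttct
Hist1h4i (chr13:22041363-22041462, minus strand, fold 26.9): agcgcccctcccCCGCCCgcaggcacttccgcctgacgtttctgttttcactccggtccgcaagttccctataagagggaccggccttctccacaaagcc
Hist1h3h (chr13:21717528-21717627, plus strand, fold 25.7): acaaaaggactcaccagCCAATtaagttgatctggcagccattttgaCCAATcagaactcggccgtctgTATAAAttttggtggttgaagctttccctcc
Polr2a (chr11:69758634-69758733, minus strand, fold 27.5): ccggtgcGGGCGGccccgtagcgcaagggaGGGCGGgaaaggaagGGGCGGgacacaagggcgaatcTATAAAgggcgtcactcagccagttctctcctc
Srsf2 (chr11:116853095-116853194, minus strand, fold 12.1): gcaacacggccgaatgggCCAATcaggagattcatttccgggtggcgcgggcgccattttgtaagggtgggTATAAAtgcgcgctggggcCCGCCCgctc
Rplp0 (chr5:115559367-115559466, plus strand, fold 13.8): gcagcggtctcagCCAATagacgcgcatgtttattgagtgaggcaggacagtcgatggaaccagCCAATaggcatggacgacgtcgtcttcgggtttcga
Pou5f1 (chr17:35505932-35506031, plus strand, without NELFA): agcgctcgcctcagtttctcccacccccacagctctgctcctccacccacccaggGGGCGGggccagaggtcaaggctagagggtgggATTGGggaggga
Eef2 (chr10:81176531-81176630, plus strand, without NELFA): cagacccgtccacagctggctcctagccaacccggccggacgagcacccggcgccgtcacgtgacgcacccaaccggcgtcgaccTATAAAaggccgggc

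In Hist1h1a and Polr2a the TATAAA begins 33 bases before the start, in Hist1h3h 31 and in Srsf2 29. Hist1h4i, with a higher fold than Hist1h3h, and Rplp0 hold none in these bases. Eef2, which has no NELFA, also holds TATAAA, 15 bases before its start. Over the 300 bases from 250 before to 50 after the GENCODE start, searched on both strands for 21898 genes, TATAAA was found in 18.3% of the strong genes, 6.27% of the other genes with NELFA and 12.7% of all genes. It was in 57.9% of the histone genes with NELFA and in 51.7% of those without it. Without histone genes, 15.2% of the strong genes held it. In the highest quartile 9.77% of the genes with NELFA and 6.98% of those without held it, against 23.1% of genes at 0 without NELFA. TATAAA on the gene's own strand that began 35 to 24 bases before the start was found in 4.24% of the strong genes other than histone genes, 0.689% of the other genes with NELFA and 2.11% of all genes. In the highest quartile it was there in 1.99% of the genes with NELFA and 0.494% of those without. Among genes at 0 without NELFA it was there in 5.13%, and these count among all genes. By the GENCODE starts TATAAA was found at that place in 2 of the 38 histone genes with NELFA (5.26%) and in 3 of the 29 without (10.3%). In Hist1h3h and Hist1h4d the GENCODE start lies 31 and 30 bases downstream of the RefSeq start, so their TATAAA falls outside these bases. How far such offsets lower the histone counts was not tested. A match is a string of letters and does not show that a factor binds.

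Promoters with NELFA were rich in CpG. The median ratio of observed to expected CpG was 0.844 with NELFA and 0.472 without, and among genes of the highest quartile it was 0.855 and 0.777. GGGCGG was found in 66.7% of promoters with NELFA and 43.0% of all, and in the highest quartile in 66.3% with and 62.4% without NELFA. CCGGAAG, the core of ETS sites, was in 22.8% with NELFA and 10.8% of all, but in 13.8% of the strong genes, and in the highest quartile in 21.8% with and 22.3% without NELFA. For both motifs the gap between genes with and without NELFA was thus small within the highest quartile. CCAAT was in 78.9% of histone promoters with NELFA, 89.7% of those without it and 39.0% of all. The remaining motifs, the CRE core TGACGTC, the AP-1 site TGACTCA, the E-box CACGTG and the NRF1 half-site GCATGCG, were in 7.46%, 2.98%, 12.1% and 9.06% of promoters with NELFA and in 3.999%, 4.60%, 7.76% and 4.65% of all. Within the highest quartile they were in 7.78%, 3.29%, 13.2% and 9.07% with NELFA and in 6.52%, 2.90%, 11.7% and 6.88% without. Their gaps were thus smaller there too, and that of TGACTCA had the other direction.

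Strong NELFA at low TPM was seen at 24 genes, those at 0 or in the lowest quartile. Of these, 7 were histone genes, 11 others shared the summit with a gene of the third or highest quartile, and the summit at Trim17 lay 46 bp from its start and equally 46 bp from that of the histone gene Hist3h2a. This left 5 genes, among them BC049762, H2-DMa, Syngr4 and RPS10-NUDT3. Among all 51 low genes with NELFA, 9 were histone genes, 32 shared the summit with a gene of the third or highest quartile, 2 had another gene start at least as near to the summit, and 8 had the nearest start. The histone genes with strong NELFA were Hist1h3f (fold 23.5, 0.380 TPM), Hist1h2ac (22.5, 0.146 TPM), Hist1h4c (15.9, listed at 0 TPM), Hist1h2bg (14.1, 0.379 TPM), Hist4h4 (13.9, 0.0720 TPM), Hist1h3d (13.5, 0.355 TPM) and Hist1h2ba (10.4, listed at 0 TPM). The summit at Hist1h2ac was nearest to the start of Hist1h2bc (6.37 TPM).

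Most of the other low genes with strong NELFA stood opposite or beside a transcribed gene. Ttc39d, a tetratricopeptide repeat gene listed at 0 TPM, had a fold of 12.6 from a summit 194 bp upstream of its start, 41 bp inside Srsf7, a splicing factor gene at 191.7 TPM. Teddm2 (0.137 TPM, fold 10.2) shared its summit with Glul, the glutamine synthetase gene, at 217 TPM. Nonagouti, a pigmentation gene whose symbol is a (listed at 0 TPM, fold 10.7), shared one with Raly, an RNA-binding protein gene, at 125 TPM. Clhc1 (0.205 TPM, fold 6.35) shared one with the ribosomal protein gene Rps27a at 2812 TPM. The other 7 partners, 1810009A15Rik, 2410002F23Rik, Ahctf1, Gorasp2, Dtwd1, Raver1 and Zfp7, were at 8.30 to 70.1 TPM. In these 11 cases the partner had at least 8.30 TPM and the low gene at most 0.423. That gap follows from how the cases were chosen, by the TPM classes of both genes.

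These low genes had the start nearest to a strong peak and differed in the other lists. BC049762 (0.0806 TPM, fold 7.60) had H3K27ac and no Ser5p, Ser2p or Ctr9. H2-DMa, which encodes a chaperone of antigen loading on MHC class II (0.216 TPM, fold 6.97), had Ser5p, Ser2p and Ctr9 and no H3K27ac. Its summit lay 222 bp from the annotated gene start but within 1 kb of no protein-coding transcript start of the gene. Syngr4 (0.159 TPM, fold 6.80) shared its summit with Tmem143 at 5.57 TPM. RPS10-NUDT3, listed at 0 TPM with a fold of 6.26, is an annotated readthrough of Rps10 and Nudt3, and Rps10 itself was at 1543 TPM with its gene start 1476 bp, and the start of another of its coding transcripts 35 bp, from the nearest NELFA summit.

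Genes with high TPM and no NELFA numbered 3037, with a median of 43.9 TPM against 69.5 TPM for the 1003 genes of the highest quartile with NELFA. Only 85 of the 3037 had a NELFA peak overlapping the 5 kb on either side of the start, and 65 had a summit within 1 kb of the start of their highest transcript. The highest, leaving out ribosomal protein and histone genes, was Eef1a1, the gene of the elongation factor that brings aminoacyl-tRNA to the ribosome, at 10124 TPM, with the nearest NELFA summit 7047 bp from its gene start. Next came Hsp90aa1 (3455 TPM, 6442 bp), a cytosolic chaperone, and Dppa5a (3190 TPM, 1968 bp), a marker of pluripotent cells. For some of these genes a summit lay at the start of another transcript. Eef1a1 held a NELFA summit of fold 11.8 inside the gene, with the start of its highest transcript 128 bp from a summit, and Hsp90aa1 one of fold 10.3, 3 bp from that of its highest transcript. Aldoa (984 TPM) was likewise 123 bp from a summit at its highest transcript. In all, 109 of the 3037 genes had a NELFA summit inside the gene, and 33 had one of at least 6.14. Eef2, the translocation factor of the ribosome (1979 TPM), had its nearest summit 70563 bp away and no peak of the other lists at the gene. Pou5f1, the pluripotency factor Oct4, was at 1402 TPM with a summit 2294 bp away and with Ser5p at its start.

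The remaining genes of the 15 included metabolic enzymes and copies of other genes. Eno1 (1299 TPM) and Aldoa are glycolytic enzymes, Mif (1138 TPM) a cytokine, Eef1g (1004 TPM) a translation factor and Hnrnpa3 (926 TPM) an RNA-binding protein. Ftl1-ps1 (2335 TPM), Eno1b (1527 TPM), Gm2000 (1338 TPM), Gm11808 (1255 TPM) and Rps12-ps3 (1191 TPM) have the names of copies of other genes or of unnamed loci. For such copies the division of reads between near-identical transcripts makes the TPM uncertain. Of the 15, Ser5p lay at the start of 7, Hsp90aa1, Dppa5a, Pou5f1, Eno1, Mif, Eef1g and Hnrnpa3.

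High TPM without NELFA did not mean a bare gene. Of the 3037 genes, 89.8% had a Ctr9 peak between 1 kb upstream and 5 kb downstream of the gene and 74.8% an H3K27ac summit within 1 kb of the start, while 15.97% had Ser2p at the gene and 12.9% Ser5p at the start. Only 159 had no peak of any of the 5 mESC lists. Of the 1003 genes of the highest quartile with NELFA, 98.1% had Ctr9, 94.9% H3K27ac, 37.6% Ser2p and 65.5% Ser5p (interval 62.5% to 68.4%, against 11.8% to 14.2% without NELFA). Over all genes these lists were found at 44.1%, 31.9%, 6.99% and 7.96%. In the highest quartile the gap in percentage points between genes with and without NELFA was thus wider in Ser5p than in the other lists. At 0, in the lowest and in the second quartile H3K27ac was at 94.4% against 1.13%, 81.8% against 2.99% and 83.9% against 22.9%. Ser5p was at 83.3% against 0.157%, 60.6% against 0.474% and 52.6% against 2.42%. In these 3 classes the gap was wider in H3K27ac in percentage points, but wider in Ser5p as a ratio. The lists also differ in length, with 4490 Ser5p and 19417 H3K27ac peaks. They differ in the stretch searched too, the start for Ser5p and H3K27ac and the whole gene for Ser2p and Ctr9. With Ctr9 at 89.8% of the highest-quartile genes without NELFA, little room was left for a gap in that list.

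**Figure D4:**
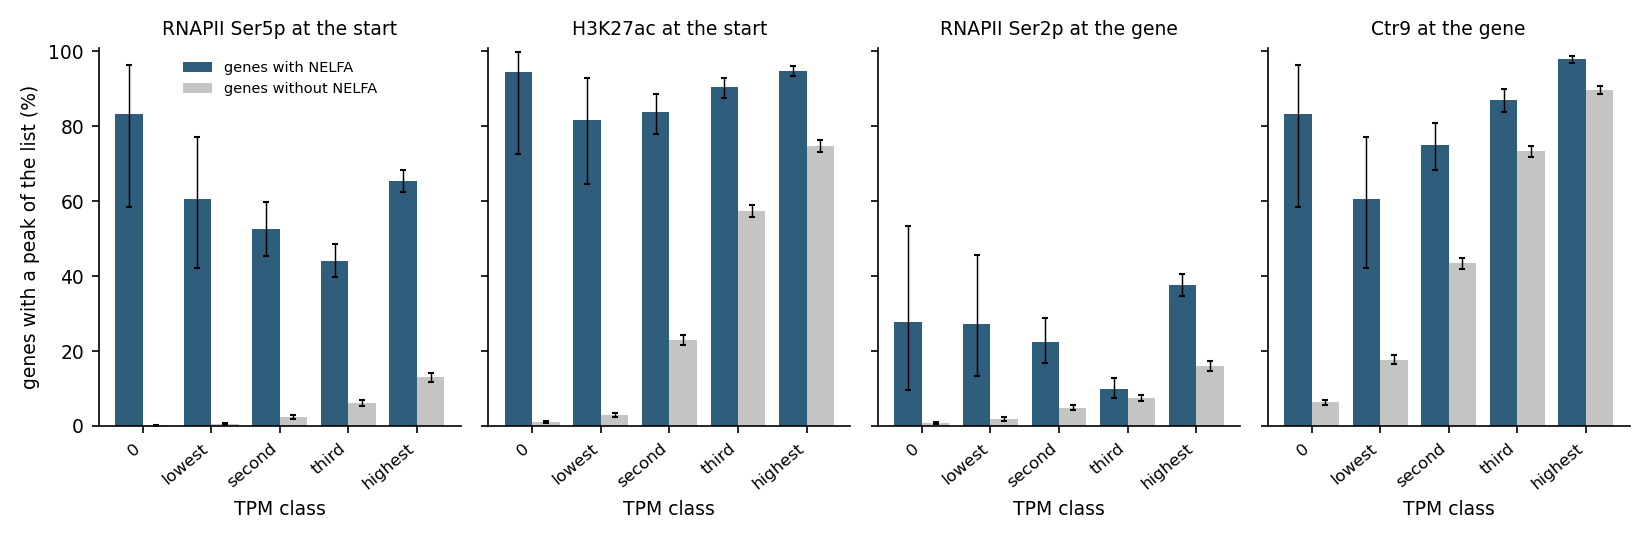
Share of genes (y axis, %) with RNAPII Ser5p or H3K27ac within 1 kb of the start, or RNAPII Ser2p or Ctr9 at the gene, by TPM class (x axis), for genes with (dark) and without (grey) NELFA. Error bars are 95% exact intervals; Ser5p was at 44.1% to 83.3% of the genes with NELFA in each class and at 0.157% to 12.9% of those without.

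Ser5p was called at most low genes with NELFA too. Of the 18 genes with NELFA listed at 0, 15 had Ser5p, 17 H3K27ac and 15 Ctr9. Of the 33 of the lowest quartile, 20 had Ser5p, 27 H3K27ac and 20 Ctr9. However, 10 of the 18 and 22 of the 33 were non-histone genes that shared the summit with a gene of the third or highest quartile. The lists do not tell peaks of the low gene from those of such a neighbour, and the same holds for the shares at low genes below. Read the other way, NELFA was at 62.5% of the genes with Ser5p listed at 0 (15 of 24), 51.3% of those of the lowest quartile (20 of 39), 52.1% and 50.2% in the second and the third, and 62.6% in the highest (657 of 1050). The intervals at 0 and in the highest quartile overlap, 40.6% to 81.2% and 59.6% to 65.5%. Those of the second and the third quartile, 44.8% to 59.3% and 45.4% to 55.0%, lie below that of the highest. Among genes with Ctr9 the share with NELFA was 3.99% at 0 and 26.5% in the highest quartile. Among genes with H3K27ac it was 20.7% and 29.5%, and among those with Ser2p 10.6% and 43.7%. The sources state that Ser5p was read in the cells with tagged NELFA. Since all lists pass a threshold and their depths are unknown, a gene without a peak can still have signal below it.

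Among the 17 gene lists, ribosomal protein genes had the highest share with NELFA, 64 of 82 genes (78.0%, interval 67.5% to 86.4%). All but 2 of the 82 were in the highest quartile, the median was 1601 TPM, and 28 of the 64 were strong. Rpl41 had the highest fold (14.8 at 3582 TPM) and Rplp0 the next (13.8 at 731 TPM), while Rps24 (3972 TPM) and Rps16 (2178 TPM) had none at the gene start. Another coding start of Rps24 lay 3 bp from a summit, and with any protein-coding transcript start the count was 71 of 82. Other highly expressed lists stood lower. Proteasome subunit genes had NELFA at 2 of 39, Psmd8 and Psmd2, although 32 of the 39 were in the highest quartile. Translation factor genes had it at 14 of 68 (20.6%), with Eif4a2 highest (fold 10.8, 117 TPM), and genes of respiratory complex I and cytochrome oxidase at 11 of 53 (20.8%). Within the highest quartile the shares were 80.0% of 80 ribosomal protein genes (69.6% to 88.1%) and 6.25% of 32 proteasome genes (0.766% to 20.8%), which do not overlap, against 24.8% of all genes of that quartile. Near that 24.8% were translation factor genes, at 26.9% of 52 (15.6% to 41.0%). So were genes of complex I and cytochrome oxidase, at 23.4% of 47 (12.3% to 38.0%). The proteasome count was 4 when any protein-coding transcript start was allowed.

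**Figure D5:**
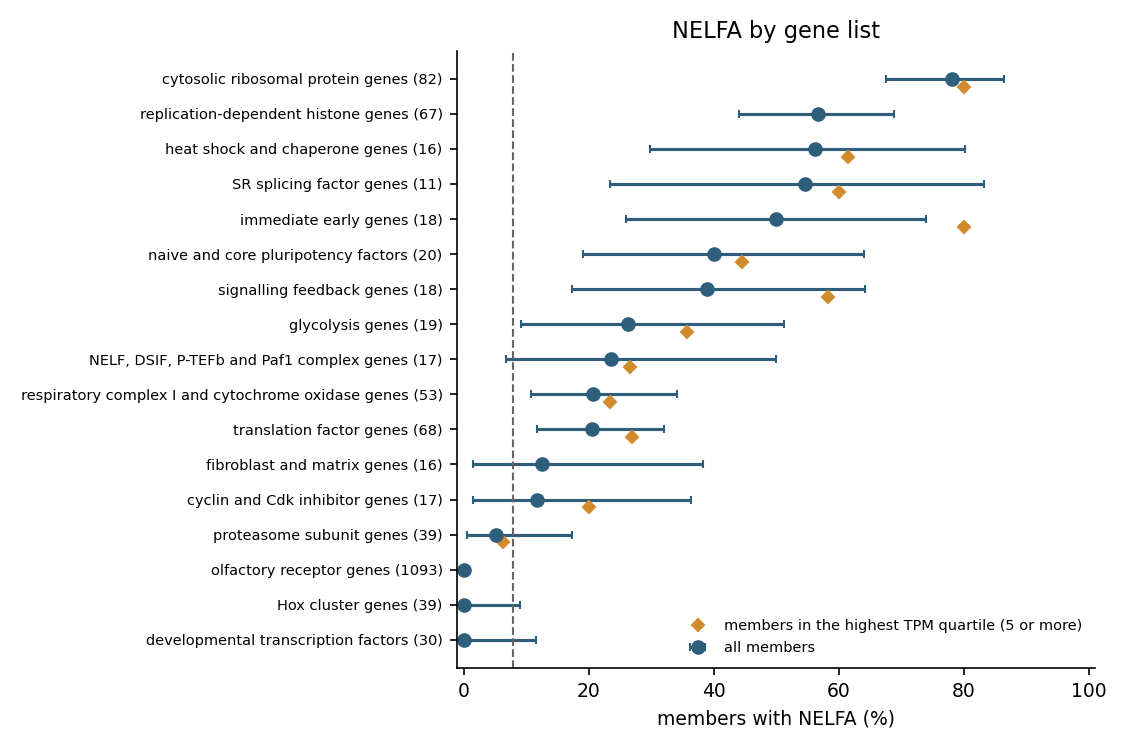
Share of the members of 17 gene lists with NELFA (x axis, %), sorted, with 95% exact intervals; the number of genes is in parentheses. Diamonds give the share among members in the highest TPM quartile where there are at least 5, and the dashed line is the share over all genes, 7.96%; ribosomal protein genes are at 78.0% and the Hox, developmental and olfactory lists at 0%.

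Immediate early genes with NELFA ranged from the second to the highest TPM quartile. Their median was 12.5 TPM, against 1.30 TPM for the members without NELFA. Of 18 immediate early genes, the transcription factor genes and others that answer growth signals within minutes, 9 had NELFA (50.0%, interval 26.0% to 74.0%, against 7.96% of all genes), and 6 were strong. Klf6 (fold 13.4, 23.2 TPM), Jund (11.6, 77.3 TPM), Junb (10.8, 35.2 TPM), Ier2 (9.51, 101.9 TPM), Myc (8.10, 12.5 TPM) and Fos (7.93, 2.73 TPM) were the strong ones, and Ier3, Jun and Btg2 the others. Egr1 (15.9 TPM), Nr4a1 (29.8 TPM) and Dusp1 (21.5 TPM) had none at the gene start, but Egr1 and Dusp1 had a summit within 1 kb of their highest transcript's start, where 12 of the 18 had NELFA. Fos, Jun and Ier3 had NELFA at 2.73, 3.25 and 3.16 TPM, in the second quartile, where 4.75% of all genes did. Of the 9, Ser5p was called at Klf6, Jund, Junb and Ier3.

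Of 16 heat shock and chaperone genes, 9 had NELFA (56.2%, interval 29.9% to 80.2%, against 7.96% of all genes). Within the highest quartile 61.5% of 13 did, against 24.8% of all genes there. Hsp90ab1 (fold 9.48, 3921 TPM) and Hspb1 (9.31, 1049 TPM) were highest. Hspa1b, an inducible Hsp70 gene, had a fold of 5.38 at 5.62 TPM, and its near-identical copy Hspa1a (0.491 TPM) had none, so the division between these copies is uncertain. Of the mitochondrial chaperones, Hspd1 (699.8 TPM), Hspe1 (566 TPM) and Hspa9 (463 TPM) had Ser5p but no NELFA. Of 18 signalling feedback genes, which restrain the pathways that induce them, 7 had NELFA (38.9%, interval 17.3% to 64.3%, against 7.96% of all genes). All 7 were in the highest quartile, where they were 58.3% of 12 genes (27.7% to 84.8%), against 24.8% of all genes there. Dusp6, a phosphatase of ERK, had a fold of 8.38 at 41.8 TPM, and Id1, a BMP target, 7.54 at 141 TPM, while Lefty2 (246 TPM) and Spry2 (149.6 TPM) had none.

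The pluripotency factors were divided. Of 20, 18 in the highest quartile, 8 had NELFA (40%, interval 19.1% to 63.9%, against 7.96% of all genes). Within the highest quartile 44.4% did (21.5% to 69.2%), an interval that holds the 24.8% of all genes of that quartile. They were Tdgf1 (fold 8.60, 783.5 TPM), Klf2 (8.13, 251 TPM), Zfp42 (6.82, 286 TPM), Nanog (5.79, 281 TPM), Tfcp2l1 (5.65, 112 TPM), Tbx3 (5.0999, 38.7 TPM), Sox2 (4.85, 364 TPM) and Klf5 (4.67, 310.2 TPM). All 8 also had Ser5p. Among those without NELFA, Pou5f1, Utf1, Nr0b1, Klf4 and Sall4 had Ser5p, and Esrrb (211 TPM, nearest NELFA summit 506591 bp away) and Lin28a (155 TPM) had neither. The median TPM of the members was 284 with NELFA and 117 without. In contrast, no NELFA was found at 30 developmental transcription factor genes (interval up to 11.6%), 39 Hox genes (up to 9.03%) or 1093 olfactory receptor genes (up to 0.337%). Of the developmental genes, 22 were at 0 or in the lowest quartile, as were 35 of the Hox genes, so these counts of 0 lie near what those classes had in general.

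Genes of the pausing machinery had NELFA about as often as other genes of the highest quartile. Of 17 genes of NELF, DSIF, P-TEFb and the Paf1 complex, 15 in the highest quartile, 4 had NELFA, which is 26.7% of the 15, against 24.8% of all genes there. Hexim1, which encodes an inhibitor of P-TEFb, had a fold of 9.89 at 58.1 TPM, Supt5, a DSIF subunit, 5.08 at 69.9 TPM, and Paf1 4.28 at 37.7 TPM. Nelfa had a fold of 4.90 at 35.8 TPM, with the summit 227 bp downstream of its start. This was the only NELFA peak within 200 kb of the gene. The genes of the other NELF subunits, Nelfb, Nelfcd and Nelfe (20.9 to 37.2 TPM), of Cdk9 and of Ctr9 (29.0 TPM) had none. Of 11 SR splicing factor genes, 6 had NELFA (54.5%, interval 23.4% to 83.3%, against 7.96% of all genes), with a median fold of 9.83. Within the highest quartile 6 of 10 did (60%, 26.2% to 87.8%), against 24.8% of all genes there. They were Srsf7 (12.6), Srsf2 (12.1), Srsf5 (10.0), Srsf3 (9.62), Srsf6 (6.80) and Srsf1 (5.79), at 148 to 411 TPM, and the members without NELFA were at 65.5 TPM or below.

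Of 19 glycolysis genes 5 had NELFA (26.3%), Gapdh (fold 7.73, with the summit 890 bp downstream), Pkm, Slc2a1, Hk2 and Pgam1. In the highest quartile 35.7% of the 14 members did (interval 12.8% to 64.9%), against 24.8% of all genes there. Of 17 cyclin and Cdk inhibitor genes, Ccnb1 (6.68, 249 TPM) and Ccna2 (4.55, 80.9 TPM) had it (11.8%). Of 16 fibroblast and matrix genes, Fn1 (6.99, 75.7 TPM) and Ccn2 (4.78, 30.0 TPM) did (12.5%). The intervals of these last lists, 1.46% to 36.4% and 1.55% to 38.3%, hold the 7.96% of all genes. Of the widely expressed genes Actb, Pabpc1 and Ppia, with folds of 13.1, 12.03 and 7.59, Actb had its summit 75 bp downstream of the start, Ppia 461 bp and Pabpc1 689 bp.

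The share with NELFA among genes high in mESCs was also read against their level in NIH3T3 fibroblasts, for which 1 RNA-seq library was deposited. Of the 4040 genes of the highest quartile in mESCs, 2740 were in the highest quartile of NIH3T3 cells too, and 27.1% of them had NELFA (interval 25.4% to 28.8%). Of the 98 listed at 0 in NIH3T3 cells, 15.3% had NELFA (8.83% to 23.99%), and of the 72 in the lowest quartile there, 13.9% (6.87% to 24.1%). The share was 16.4% and 21.8% in the second and the third. The genes at 0 in NIH3T3 cells had a median of 54.4 TPM in mESCs and those shared at the highest level 62.9 TPM. For the lowest, the second and the third quartile of NIH3T3 cells the mESC median was lower, at 41.5, 33.1 and 30.7 TPM. These groups thus differ in mESC level too. NELFA was not measured in NIH3T3 cells in the lists used here.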

How the data were processed

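ChIP-seq of NELFA-GFP, RNAPII Ser5p, RNAPII Ser2p, Ctr9-GFP and H3K27ac and RNA-seq were made once each in mESCs. The authors aligned ChIP-seq reads to mm10 with bowtie2 2.3.5.1, removed ENCODE blacklist regions and used macs2 2.2.6 on each library, keeping peaks with a q-value under 0.01. The input library used for NELFA is not given in the sources used here. The deposited lists hold the fold enrichment (a ratio to the local background), the −log10 of p and q at each summit, and a score made from the q-value. The deposited RNA-seq tables hold TPM and estimated counts per transcript from kallisto 0.46.1 on GENCODE M19.

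Gene starts and gene types came from GENCODE M21 (GRCm38, the same assembly as mm10), and 21905 of 21938 protein-coding genes were found in the RNA-seq table by gene ID. Mitochondrial genes were left out. Where several summits lay within 1 kb of a start, the highest fold was used. Ser5p and H3K27ac were counted by a summit within 1 kb of the start, and Ser2p and Ctr9 by a peak overlapping the gene from 1 kb upstream to 5 kb downstream. Promoter sequences were read from the RefSeq GRCm38.p6 genome and from RefSeq promoters, in which 81 of 120 named genes were matched.

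Named genes were the 15 of highest fold, the 12 of highest fold in each of the 2 low classes, the 15 of highest TPM without NELFA (ribosomal protein and histone genes left out), up to 4 genes per list (the 2 of highest fold and the 2 of highest TPM without NELFA), and marker and control genes. Clhc1 and the other list members fall outside this rule and were chosen on seeing their values. The members, gene lists and rules were chosen with earlier results of these data known. Histone genes were taken by their Hist1 to Hist4 symbols.

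With 1 library of each kind no test was made. Shares carry 95% exact Clopper-Pearson intervals and medians order-statistic intervals. Computations used Python 3.11.15, pandas 2.3.3, NumPy 2.4.6, SciPy 1.17.1 and pysam, and figures Matplotlib 3.10.9. The functions were tested on simulated data, and 6 of 6 checks passed. Of the alternatives, 9 were planned and 1 was added. The values of 1 gene named by these rules are not reported here.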

Additional observations from a re-analysis of the deposited data

How the results depend on the processing

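The 5 shares, 5 median folds and 2 counts were recomputed with 9 other settings and 1 more added after seeing the data, and 101 of the 120 values stayed within the interval of the reported value or, for counts, within 1.5 times. The other 19 are given here. The shares by class kept their order in every setting. Giving each summit only to the nearest start of any gene type lowered the shares to 0.139%, 0.347%, 3.42%, 9.48% and 20.6% from the genes at 0 to the highest quartile, raised the median fold of the lowest quartile to 6.89, and left 14 genes with strong NELFA and low TPM in place of 24. Counting TPM below 0.1 as 0 gave shares of 1.39%, 7.02% and 13.5% in the lowest, the second and the third quartile, and 37 genes with strong NELFA and low TPM. With peaks of −log10 q of at least 5, the shares were 4.11%, 10.6% and 22.1% in the second, the third and the highest quartile, and the median folds of the last 2 were 5.0999 and 5.30. The share of the highest quartile was 23.3% with a window of 500 bp and 26.8% with the start of any protein-coding transcript, and that of the third quartile was 11.1% with the start of the highest transcript. The windows of 2 kb, the overlap of at least 1 bp, the sum of TPM over transcripts and the omission of histone genes (added) moved none of the 12 values beyond these limits. Of the named genes with NELFA, 16 lost it when summits went to the nearest start, 4 with a window of 500 bp, 6 with the start of the highest transcript (Tbx3, a, H2-DMa, Gm49416, Gm38431 and 1700028J19Rik) and 2 with the start of any protein-coding transcript (H2-DMa and Gm38431). No paired analysis was possible because each kind of data came from 1 library, and for the same reason no replicate could be left out. The unknown depth of the ChIP-seq library limits what a missing peak means.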

Other observations

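Among NELFA summits away from protein-coding starts, those at snRNA genes were few but had high folds. Of the 1980 summits, 1508 lay within 1 kb of a protein-coding start and 472 did not. Of these 472, 117 had a gene start of another type within 1 kb, among them 26 at snRNA genes, 18 at snoRNA genes and 28 at lincRNA genes, and 355 lay near no annotated start. The 26 at snRNA genes, which encode the RNAs of the spliceosome, had a median fold of 15.5, against 5.04 for summits at protein-coding starts and 4.68 for those near no start. Of the 20 strongest peaks of the list, 10 were at protein-coding starts and 6 at snRNA starts with no protein-coding start within 1 kb.

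Among the strongest of these were Gm22068, annotated as snRNA (fold 26.2), Rnu3b2, a gene of the U3 snoRNA (23.97), Gm25099, annotated as snRNA (23.2), Rnu5g, a gene of the U5 snRNA (21.0), and Rnu2-10, a gene of the U2 snRNA (20.4). The gene of the long non-coding RNA Malat1 had a fold of 20.6, with the summit 44 bp from its start. A peak of fold 22.2 on chromosome 13 had no start within 1 kb and lay 1968 bp from that of Hist1h1d. Like the mRNAs of the replication-dependent histones, snRNAs have no poly(A) tail. The snRNA and snoRNA genes are multicopy, so the placing of reads among copies is uncertain, and their part in these folds was not tested.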
